A study of Mus musculus with 7 samples.

Results

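The genes described here are 42 imprinted genes of the mouse, 38 of them protein-coding and 4 of them long noncoding RNA genes, which fall into 17 clusters or single loci. They were chosen by name, from a list drawn up with earlier results of these data known, and they are set against 21883 protein-coding genes of the autosomes and both sex chromosomes. The series profiled the histone marks H3K27me3 and H3K27ac by chromatin immunoprecipitation and sequencing (ChIP-seq) in globose basal cells, the dividing progenitors of the olfactory epithelium. All cells came from adult wild-type mice killed 7 to 10 days after the olfactory epithelium had been lesioned with methimazole, and there was no unlesioned group and no mutant. Each library pooled cells of 3 mice that were enriched with an antibody to c-Kit and magnetic selection, so a library is a pool of animals and of whichever c-Kit-positive cells the selection took. The H3K27me3 group (antibody CST #9733) and the H3K27ac group (antibody Abcam ab4729) had 2 libraries each, and 3 input libraries had no peak list that was used here.

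Genomic imprinting is expression from only the maternal or only the paternal copy of a gene. Imprinted genes lie in clusters that hold an imprinting control region, a stretch whose DNA is methylated on a single parental copy, and long noncoding RNAs such as Kcnq1ot1 and Airn silence neighbouring genes on the copy they are made from. H3K27me3 is the repressive mark of Polycomb Repressive Complex 2, H3K27ac marks active promoters and enhancers, and a locus whose parental copies differ can give reads of both marks from the same cell. The peak lists do not separate the parental copies or single cells, so marks on different copies, in different cells and on the same nucleosome cannot be told apart.

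In what follows a gene carries a mark if at least 1 peak from each of its 2 libraries overlapped the window from 5 kb before to 5 kb after the gene. H3K27me3 was carried by 35 of the 42 imprinted genes (83.3%), against 46.2% of all protein-coding genes. H3K27ac was carried by 27 imprinted genes (64.3%), against 70.0% of protein-coding genes. Both marks were carried by 20 imprinted genes (47.6%), against a background of 35.7%. No imprinted gene had neither mark, a state found at 19.6% of protein-coding genes. These counts depend on the peak threshold, the −log10 q of a peak. With peaks of at least 2, H3K27me3 was on 24 imprinted genes against 26.1% of protein-coding genes, both marks were on 9 against 16.6%, and neither mark was on 6 against 25.7%. With peaks of at least 5, H3K27me3 was on 4 against 5.75%, both marks were on 0 against 1.54%, and neither mark was on 20 (47.6%) against 43.2%. At this last threshold the share with both marks was therefore below the background and the share with neither above it, the reverse of the main counts. The 4 noncoding genes all carried H3K27me3 and 3 of them carried H3K27ac, against 43.3% and 48.1% of 12727 long noncoding RNA genes, and Meg3 was the gene without H3K27ac. These shares are descriptions of the libraries with no test, because the genes were chosen by name, lie in clusters and share peaks.

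Neighbouring windows overlap, so the 42 genes are fewer than 42 separate loci. Merging windows that overlap gave 32 loci, of which 9 held several members and 19 members shared a locus. Of these loci 27 carried H3K27me3, 19 carried H3K27ac and 14 carried both marks, while 13 carried H3K27me3 alone and 5 carried H3K27ac alone. Windows of other genes were not merged in this way, so the locus counts have no background share.

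The windows of imprinted genes were long, with a median of 44.5 kb against 27.2 kb for protein-coding genes, and a longer window holds more peaks. Within classes of window length the H3K27me3 share of the imprinted genes was still above that of protein-coding genes. Of the 13 with a window of up to 20 kb, 11 carried H3K27me3, against 36.7% of protein-coding genes of that class. In the class from 20 to 50 kb it was 9 of 10 against 44.5%, from 50 to 100 kb it was 8 of 11 against 51.6%, and over 100 kb it was 7 of 8 against 71.7%. H3K27ac showed no such order. The counts were 7 of 13 against 49.8%, 5 of 10 against 78.1%, 9 of 11 against 84.5% and 6 of 8 against 87.2% in the same classes, so the share of imprinted genes was above the background in the shortest class and below it in the other 3.

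**Figure D1:**
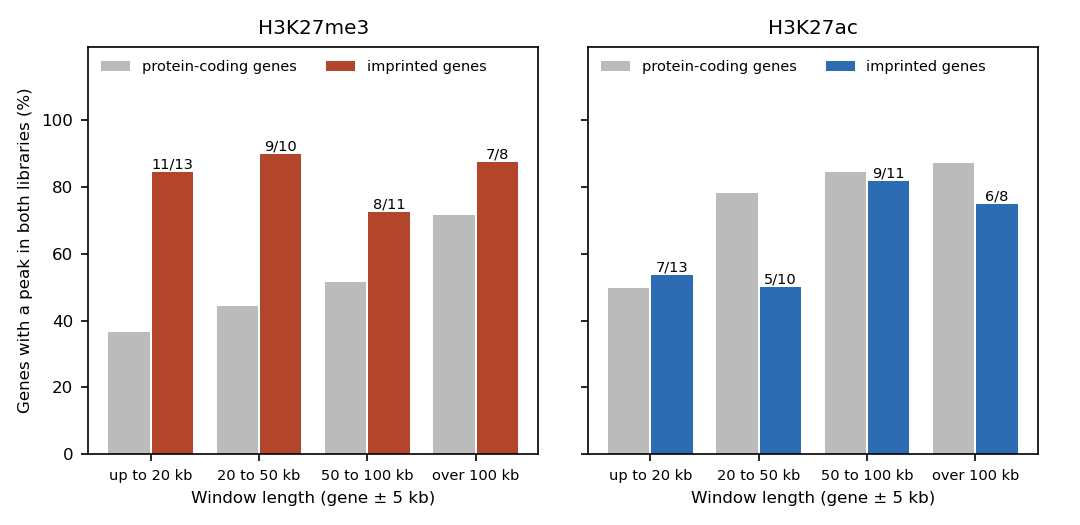
Share of genes with a peak in both libraries of a mark (percent, vertical axis) in 4 classes of window length (horizontal axis), for protein-coding genes (grey) and the 42 imprinted genes (colour, with the number of genes above each bar). The coloured H3K27me3 bars exceed the grey bars in all 4 classes, while the H3K27ac bars exceed grey only in the shortest class, at 7 of 13.

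The height of the H3K27me3 peaks was close to that at other genes. Among the 35 imprinted genes with H3K27me3 the median of the highest fold enrichment, the authors' ratio of signal over background for a peak, was 4.63 in replicate 1 and 3.92 in replicate 2, and in protein-coding genes with the mark it was 4.45 and 3.71. Peaks covered a larger part of the windows, with a median of 17.6% and 10.6% of the bases, against 9.56% and 6.54% in protein-coding genes with the mark. For H3K27ac the median fold of the 27 genes was 7.42 and 5.17, below the 9.24 and 7.06 of protein-coding genes, and the median covered share was 8.85% and 6.31% against 11.0% and 8.76%. Fold values are compared only within a library, because the lists give no read totals and the median folds of replicate 2 were lower for both marks.

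**Figure D2:**
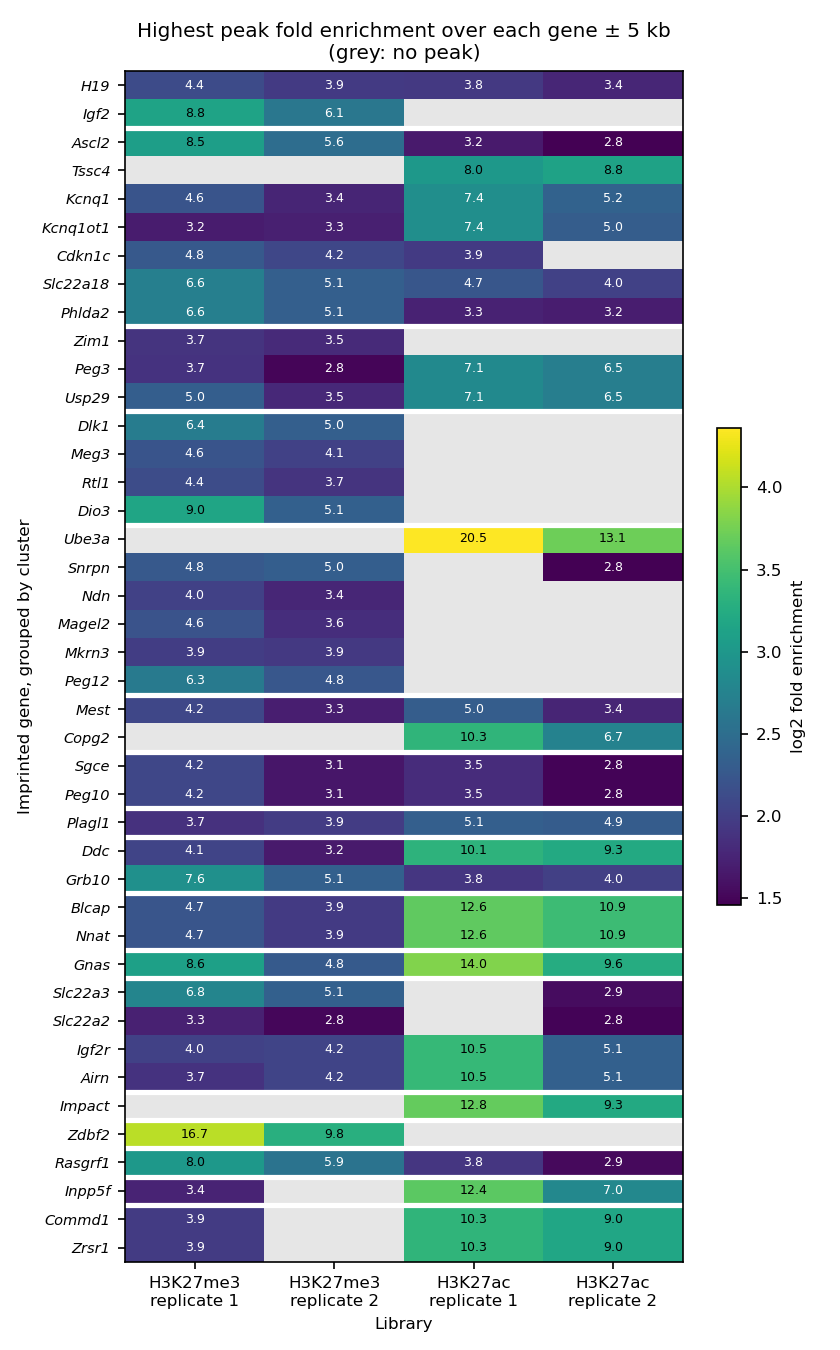
Highest fold enrichment of a peak over each of the 42 imprinted genes and 5 kb on each side (rows, grouped by cluster) in each of the 4 libraries (columns). Numbers are linear folds, colour is their log2, and grey cells had no peak. Zdbf2 has the highest H3K27me3 values, 16.7 and 9.80, and Ube3a the highest H3K27ac values, 20.5 and 13.1.

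At gene starts the shares lay on the same sides of the background. Starts were the annotated ones, or either gene end for a gene that the RefSeq promoter table lacks. Within 1 kb of a start, 29 imprinted genes (69.0%) carried H3K27me3, against 26.5% of protein-coding genes, and 22 (52.4%) carried H3K27ac, against 61.4%. Of these 29 and 22 genes, 6 and 4 were placed by a gene end. The 29 genes with H3K27me3 at a start became 19 (against 16.4%) with the first of these stricter thresholds and 4 (against 4.35%) with the second. Both marks lay within 1 kb of a start in 11 imprinted genes (26.2%), against 16.1%. These were Kcnq1, Phlda2, Peg3, Usp29, Mest, Sgce, Peg10, Plagl1, Grb10, Gnas and Airn, and in Gnas the marks lay at different starts. Snrpn and Ddc had neither mark at a start. The RefSeq promoter table holds 51 starts of 35 of the genes. H3K27me3 covered the start itself in both libraries at 24 of these 51 (47.1%), against 16.6% of 21262 protein-coding starts, and at 5 kb upstream of the start the shares were 19.6% and 3.66%. The imprinted share at 5 kb stood above those beside it, 9.80% at 4.5 kb and 13.7% at 5.5 kb upstream. H3K27ac covered 20 of the 51 starts (39.2%), against 54.6%, and at 5 kb upstream it covered 1.96% against 5.46%. Several starts of a gene share a peak, so the 51 starts are not independent.

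**Figure D3:**
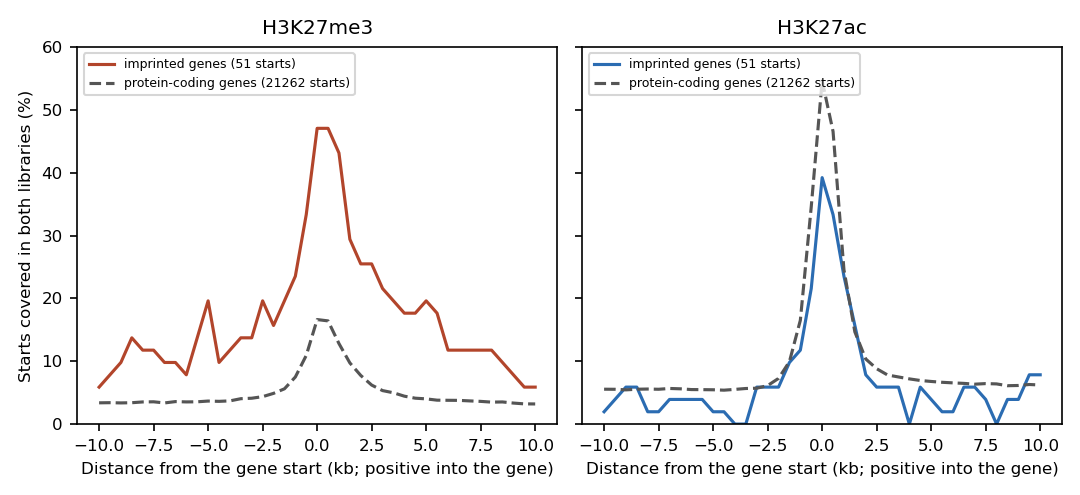
Share of gene starts covered by peaks of both libraries (percent, vertical axis) by distance from the start (kb, positive into the gene), for 51 starts of imprinted genes (solid) and 21262 protein-coding starts (dashed). H3K27me3 reaches 47.1% at the starts of imprinted genes and 16.6% in protein-coding genes, and H3K27ac reaches 39.2% and 54.6%.

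At some places the marks did not only share a window but covered the same bases. A base covered in all 4 libraries was found in the windows of 13 imprinted genes (31.0%), against 20.9% of protein-coding genes. The 13 genes shared 9 stretches, which measured 1452 bp at the end of Kcnq1 that faces Tssc4, 1074 bp at Phlda2 (also in the window of Slc22a18), 988 bp at Plagl1, 824 bp at Peg3 and Usp29, 702 bp in Airn and Igf2r, 590 bp at Mest, 368 bp at Sgce and Peg10, 322 bp in Gnas and 190 bp at Grb10. The stretches at Phlda2, Peg3, Mest and Plagl1 lay over the annotated start. Peg3, Mest, Plagl1, Airn and the shared start of Sgce and Peg10 lie at known imprinting control regions, where the maternal copy carries DNA methylation. Not every such region held a shared stretch. Snrpn, whose first exon lies at one, had no base of its window covered in all 4 libraries. The windows of Kcnq1ot1, Nnat, Zrsr1, Impact and Inpp5f had none either.

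The sequence before the start is given for 4 of the starts with both marks in all 4 libraries (Peg3 with Usp29, Phlda2, Mest and Plagl1) and for 4 noncoding or nested genes that start inside or beside another imprinted gene (Airn in Igf2r, Kcnq1ot1 in Kcnq1, Nnat in Blcap and Zrsr1 in Commd1). Each is read 5′ to 3′ on the strand of the gene from the RefSeq promoters of GRCm38.p6, with CpG dinucleotides, the bases at which mammalian DNA is methylated, in capitals. The first is the whole gap of 96 bases between the annotated Peg3 and Usp29 genes (chr7:6730463-6730558, minus strand, the strand of Peg3). The others are the 200 bases before a start, at chr7:143502525-143502724 (minus) for Phlda2, chr6:30737850-30738049 (plus) for Mest, chr10:13090632-13090831 (plus) for Plagl1, chr17:12741111-12741310 (plus) for Airn, chr7:143296548-143296747 (minus) for Kcnq1ot1, chr2:157559878-157560077 (plus) for Nnat and chr11:22971805-22972004 (plus) for Zrsr1.
Peg3-Usp29: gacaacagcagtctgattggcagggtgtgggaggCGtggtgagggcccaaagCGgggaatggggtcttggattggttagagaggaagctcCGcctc
Phlda2: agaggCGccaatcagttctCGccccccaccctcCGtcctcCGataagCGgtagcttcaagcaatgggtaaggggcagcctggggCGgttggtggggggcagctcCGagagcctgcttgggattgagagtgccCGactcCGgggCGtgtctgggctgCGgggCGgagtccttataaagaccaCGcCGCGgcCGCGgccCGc
Mest: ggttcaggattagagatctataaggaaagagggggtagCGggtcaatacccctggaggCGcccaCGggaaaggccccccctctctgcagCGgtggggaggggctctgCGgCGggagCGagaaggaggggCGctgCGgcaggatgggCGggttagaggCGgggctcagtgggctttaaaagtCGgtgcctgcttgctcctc
Plagl1: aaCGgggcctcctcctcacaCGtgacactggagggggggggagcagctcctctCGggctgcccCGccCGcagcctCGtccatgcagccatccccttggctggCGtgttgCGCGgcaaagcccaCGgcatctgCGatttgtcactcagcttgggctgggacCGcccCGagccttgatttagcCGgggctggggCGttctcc
Airn: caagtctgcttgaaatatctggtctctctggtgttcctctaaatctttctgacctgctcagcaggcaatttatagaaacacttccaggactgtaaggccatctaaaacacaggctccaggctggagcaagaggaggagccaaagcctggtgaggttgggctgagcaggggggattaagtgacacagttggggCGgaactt
Kcnq1ot1: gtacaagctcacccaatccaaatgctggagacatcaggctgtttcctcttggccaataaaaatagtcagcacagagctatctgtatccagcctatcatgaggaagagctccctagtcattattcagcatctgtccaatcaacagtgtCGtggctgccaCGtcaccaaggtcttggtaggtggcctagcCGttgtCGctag
Nnat: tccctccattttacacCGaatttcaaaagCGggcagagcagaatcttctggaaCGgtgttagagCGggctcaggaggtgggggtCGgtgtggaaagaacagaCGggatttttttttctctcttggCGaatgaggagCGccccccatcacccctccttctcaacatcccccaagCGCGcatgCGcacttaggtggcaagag
Zrsr1: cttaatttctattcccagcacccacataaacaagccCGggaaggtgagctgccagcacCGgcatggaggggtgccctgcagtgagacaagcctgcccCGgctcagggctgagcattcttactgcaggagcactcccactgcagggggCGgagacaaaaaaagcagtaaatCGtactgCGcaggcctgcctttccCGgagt

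The sequences differ in their CpG content. Phlda2 holds 18 CpG dinucleotides in its 200 bases, Plagl1 holds 15 and Mest 12, Nnat holds 11 and Zrsr1 7, while Kcnq1ot1 holds 4 and Airn 1, and the Peg3 to Usp29 gap holds 3 in 96 bases. Mest and Plagl1 each hold 1 match to TGCCGC, the motif of ZFP57, a zinc finger protein that keeps methylation at imprinting control regions, and Nnat holds 2 overlapping matches to GCGCATGC, part of the motif of the activator NRF1, 1 on each strand. Phlda2 holds 1 match to GGNGGCAG, part of the motif of CTCF, a boundary factor. Over the 300 bases from 250 before to 50 after each start, the 51 starts had a median of 15 CpG dinucleotides and 56.0% GC, against 7 and 52.7% over all 32851 starts in the table. Those 32851 starts belong to 27025 genes, of which 17497 are protein-coding, so this background is broader than the protein-coding one used above. TGCCGC was found, on either strand, at 13 of the 51 starts (25.5%) and at 11.6% of all starts, and it is itself a CpG-containing word. GGNGGCAG was at 13.7% of the imprinted starts and 12.6% of all starts, GCCATNTT (YY1) at 3.92% and 6.05%, and GCGCATGC at 5.88% and 2.71%. A match is a run of letters and not a bound site.

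CpG content at the starts differed with the marks. The 14 imprinted starts with H3K27ac alone within 1 kb had a median of 20.5 CpG dinucleotides, the 8 with both marks 17, the 22 with H3K27me3 alone 12.5 and the 7 with neither 4. The classes overlapped widely, with values from 3 to 45 among starts with both marks and from 1 to 38 among starts with H3K27me3 alone. TGCCGC was at 4 of the 8 starts with both marks, at 5 of the 22 with H3K27me3 alone and at 2 of the 14 with H3K27ac alone. These starts are not independent, since the 14, 8, 22 and 7 belong to 11, 7, 18 and 3 genes. The 4 starts with TGCCGC and both marks include Mest at 30738050 and 30738053, so nearly the same sequence is counted more than once.

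Peg3 is a paternally expressed zinc finger gene on chromosome 7 (chr7:6703892-6730462), and Usp29, a paternally expressed ubiquitin protease gene, runs the other way from the opposite side of the gap. The H3K27ac peak over this start measured 2.89 kb with a fold of 7.11 in replicate 1 and 3.45 kb with 6.50 in replicate 2. The H3K27me3 peak measured 2.57 kb with a fold of 3.69 and 1.54 kb with 2.83, so both marks lay over the start in both libraries. Usp29 had its own highest H3K27me3 peaks far inside the gene, 5.0 in replicate 1 and 3.47 in replicate 2, at different places. Zim1, a maternally expressed zinc finger gene on the other side of Peg3, had H3K27me3 at its start (3.73 and 2.96) and no H3K27ac peak in either library.

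Mest, a paternally expressed hydrolase gene on chromosome 6, carried both marks at its internal start at 30738050. H3K27me3 peaks of 4.05 and 4.12 kb had folds of 4.23 and 3.26, and H3K27ac peaks of 0.89 and 1.10 kb inside them had folds of 4.96 and 3.39. At the upstream Mest start (30733506) there was H3K27me3 (3.47 and 3.20) and no H3K27ac. Copg2, a coatomer gene that overlaps the end of Mest, carried only H3K27ac, with folds of 10.3 and 6.69 at its own start and no H3K27me3 peak in either library.

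Plagl1, a paternally expressed zinc finger gene on chromosome 10, was the member whose marks coincided most closely. All 4 libraries had a peak of 1.04 to 1.74 kb over the start, with H3K27me3 folds of 3.65 and 3.92 and H3K27ac folds of 5.07 and 4.93. The shared stretch also held the start of Hymai, a noncoding RNA of the same locus. The start between Sgce, a sarcoglycan gene, and Peg10, a gene derived from a retrotransposon, also had both marks. H3K27me3 was 4.23 and 3.11, and H3K27ac was 3.54 and 2.82, the second in a peak of only 0.38 kb.

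Grb10 on chromosome 11 encodes an adaptor that restrains insulin and growth factor signalling. It has a start at 12037420 with H3K27me3 of 7.57 and 4.70 and H3K27ac of 3.79 and 2.75, and a start at 12027971 with H3K27me3 of 6.69 and 5.10 and no H3K27ac. The H3K27ac peaks at the first start shared 190 bp, and the highest H3K27ac peak of replicate 2 (4.02) lay elsewhere, 78651 bp from its nearest start. Ddc, the neighbouring decarboxylase gene of dopamine and serotonin synthesis, had no mark at its starts. Its highest H3K27ac folds, 10.1 and 9.31, belonged to a peak over the start of Fignl1 at the edge of the window. Inside the gene, stretches of 742 and 664 bp were covered by H3K27ac in both libraries. Its highest H3K27me3 peaks (4.14 and 3.19) lay at different places in the gene, and 581 bp were covered by H3K27me3 in both libraries.

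The Kcnq1 cluster on chromosome 7 had the widest mixture of marks, with H3K27me3 at 6 and H3K27ac at 6 of its 7 members. Kcnq1ot1, the paternally made antisense RNA, had H3K27ac over its start in both libraries, with folds of 7.42 and 4.98 in peaks of 2.07 and 1.98 kb. Its H3K27me3 peaks were small and at different places, 3.21 in replicate 1 at 150 bp from the start and 3.27 in replicate 2 at 12316 bp, so no base of its window had H3K27me3 in both libraries. Kcnq1, a potassium channel gene that contains the antisense start, held 37 and 10 H3K27me3 peaks and 20 and 16 H3K27ac peaks in its window of 330174 bp. At its end toward Tssc4 H3K27me3 was 4.63 and 3.40, and H3K27ac within 1 kb of a gene end was 6.25 and 4.83.

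The maternally expressed genes on either side of Kcnq1 were mostly under H3K27me3. Ascl2, a transcription factor gene of placenta and stem cells, had H3K27me3 of 8.52 and 5.63 in peaks of 5.99 and 7.88 kb over its start, and H3K27ac of 3.17 and 2.75 in peaks that did not overlap each other. Phlda2, a gene that limits placental growth, had H3K27me3 of 6.55 and 5.07 and H3K27ac of 3.32 and 3.22 over its start. Cdkn1c, the gene of the cell cycle inhibitor p57, had H3K27me3 of 4.81 and 4.23 and an H3K27ac peak (3.88) in replicate 1 and none in replicate 2. The 31.3 kb between Kcnq1 and Cdkn1c was covered by H3K27me3 over 40.0% and 23.9% of its length and had no H3K27ac peak in either library. Slc22a18, a transporter gene, had H3K27ac at its own start (4.70 and 4.05), and its highest H3K27me3 peaks were those of Phlda2, besides which a stretch of 361 bp inside the gene was covered in both libraries. Tssc4, a gene of a splicing factor of the U5 particle, had only H3K27ac, with folds of 8.04 and 8.75, and its peak in replicate 1 ran for 18.7 kb across Cd81 as well.

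**Figure D4:**
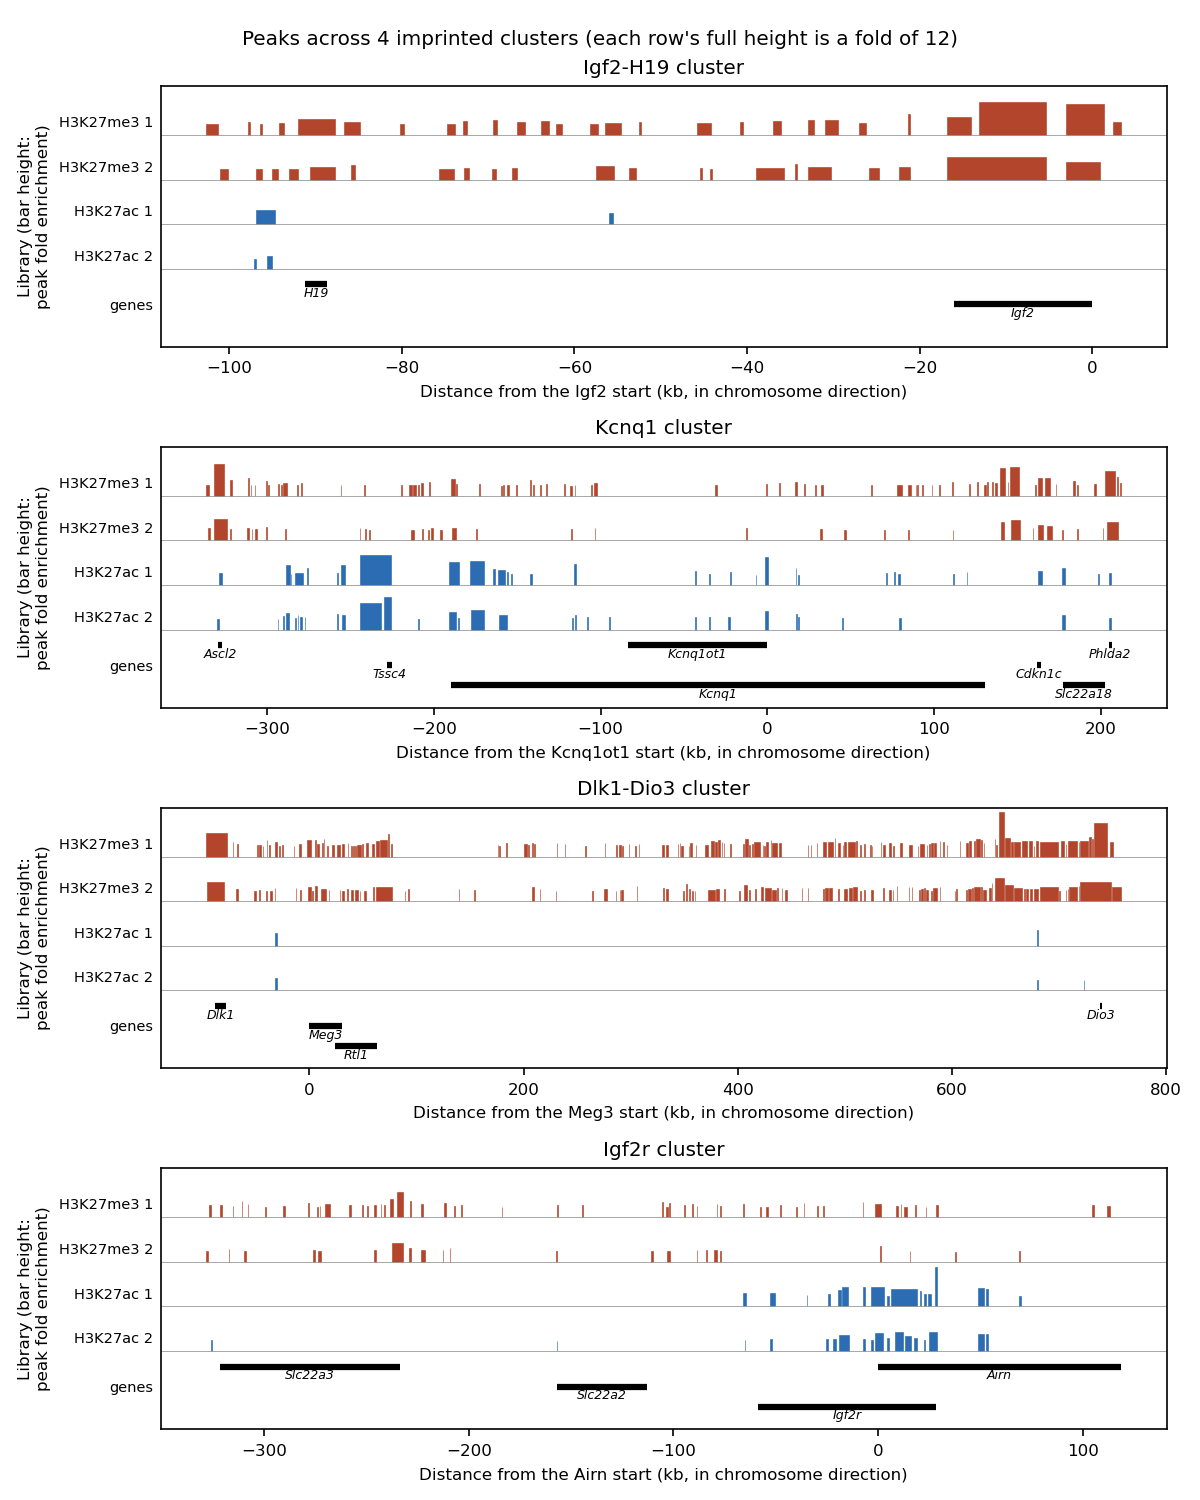
Peaks of the 4 libraries along 4 imprinted clusters, by distance in kb from a gene start (horizontal axis), with bar width for the extent of a peak and bar height for its fold enrichment, and black bars for the genes. H3K27ac is nearly absent between Dlk1 and Dio3, where H3K27me3 recurs along much of the cluster. Replicate 1 has no H3K27me3 peak there from 77.4 to 176.0 kb from the Meg3 start. In the Igf2r cluster H3K27ac lies mostly over Igf2r and Airn, while the highest H3K27me3 peaks, 6.84 and 5.08, lie over the Slc22a3 start.

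In the Igf2r cluster on chromosome 17, Igf2r and Airn carried both marks, and Slc22a3 and Slc22a2 carried H3K27me3 alone. Igf2r, the maternally expressed receptor that clears Igf2, had H3K27ac over 34.1% and 29.0% of its window, with 13 peaks in each library and folds of 10.5 and 5.08 at its start. Airn, the paternal antisense RNA that starts inside Igf2r, had H3K27ac of 5.29 and 4.91 at its start and H3K27me3 of 3.68 and 4.17 within 1 kb of it. The stretch covered in all 4 libraries lay 676 bp from the Airn start. Igf2r had 15 H3K27me3 peaks in replicate 1 and 2 in replicate 2, with H3K27me3 near its own start in replicate 1 only (3.40), and the stretch of 702 bp it shares with Airn was the only part of its window covered by H3K27me3 in both libraries. The organic cation transporter genes Slc22a3 and Slc22a2 farther along were under H3K27me3. Slc22a3 had 6.84 and 5.08 over its start and an H3K27ac peak in replicate 2 only (2.95, 91777 bp from the start). Slc22a2 was barely above the peak threshold, with H3K27me3 of 3.27 and 2.84 within 1 kb of its start, 34 bp of its window covered in both libraries, and H3K27ac of 2.81 in replicate 2 only.

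The Dlk1-Dio3 cluster on chromosome 12 carried H3K27me3 at all 4 of its members and had no H3K27ac peak over any of them in either library. Dlk1, a paternally expressed gene of a Notch-related membrane protein, lay under a single peak in each library, 19.5 kb long with a fold of 6.38 and 16.7 kb long with 5.04, which covered 79.9% and 67.9% of its window. Dio3, the gene of the deiodinase that inactivates thyroid hormone, had the most fully covered window of the 42 genes, 95.2% and 100%, with folds of 8.95 and 5.11 in peaks of 11.7 and 28.1 kb. Meg3, the maternal noncoding RNA, had H3K27me3 at both of its starts, 4.33 and 3.92 at the first and 4.55 and 4.07 at the second. Rtl1, a retrotransposon-derived placental gene, had 4.40 and 3.73. The mark did not stop at the genes. Of the 674.8 kb between Rtl1 and Dio3, 27.6% and 28.0% was covered by H3K27me3, in 103 and 83 peaks of up to 11.9 and 6.28, and 0.182% and 0.077% by H3K27ac.

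The Snrpn-Ube3a cluster on chromosome 7 had a different layout, with H3K27me3 mainly at gene starts. Ndn, Magel2, Mkrn3 and Peg12, small paternally expressed genes, each had 1 or 2 H3K27me3 peaks per library in the window and no H3K27ac peak. The highest H3K27me3 peak of each lay within 1 kb of the start in both libraries. The folds were 4.05 and 3.42 at Ndn, 4.61 and 3.59 at Magel2, 3.95 and 3.85 at Mkrn3 and 6.27 and 4.76 at Peg12. Between Ndn and Magel2, Magel2 and Mkrn3, and Mkrn3 and Peg12, peaks covered from 0.444% to 2.40% of the sequence. The 1898 kb between Snrpn and Ndn was covered over 0.357% and 0.097%. Snrpn, a splicing protein gene whose first exon lies at the imprinting control region of the cluster, had no H3K27me3 within 1 kb of any of its 4 starts, and its 4 small peaks in each library lay far inside a window of 478 kb. Its H3K27ac was 1 peak of 2.75 in replicate 2, at 49 bp from the start at 60005199. Ube3a, a ubiquitin ligase gene that is imprinted in neurons, carried only H3K27ac, at folds of 20.5 and 13.1 over its start, the highest of the 42 genes.

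**Figure D5:**
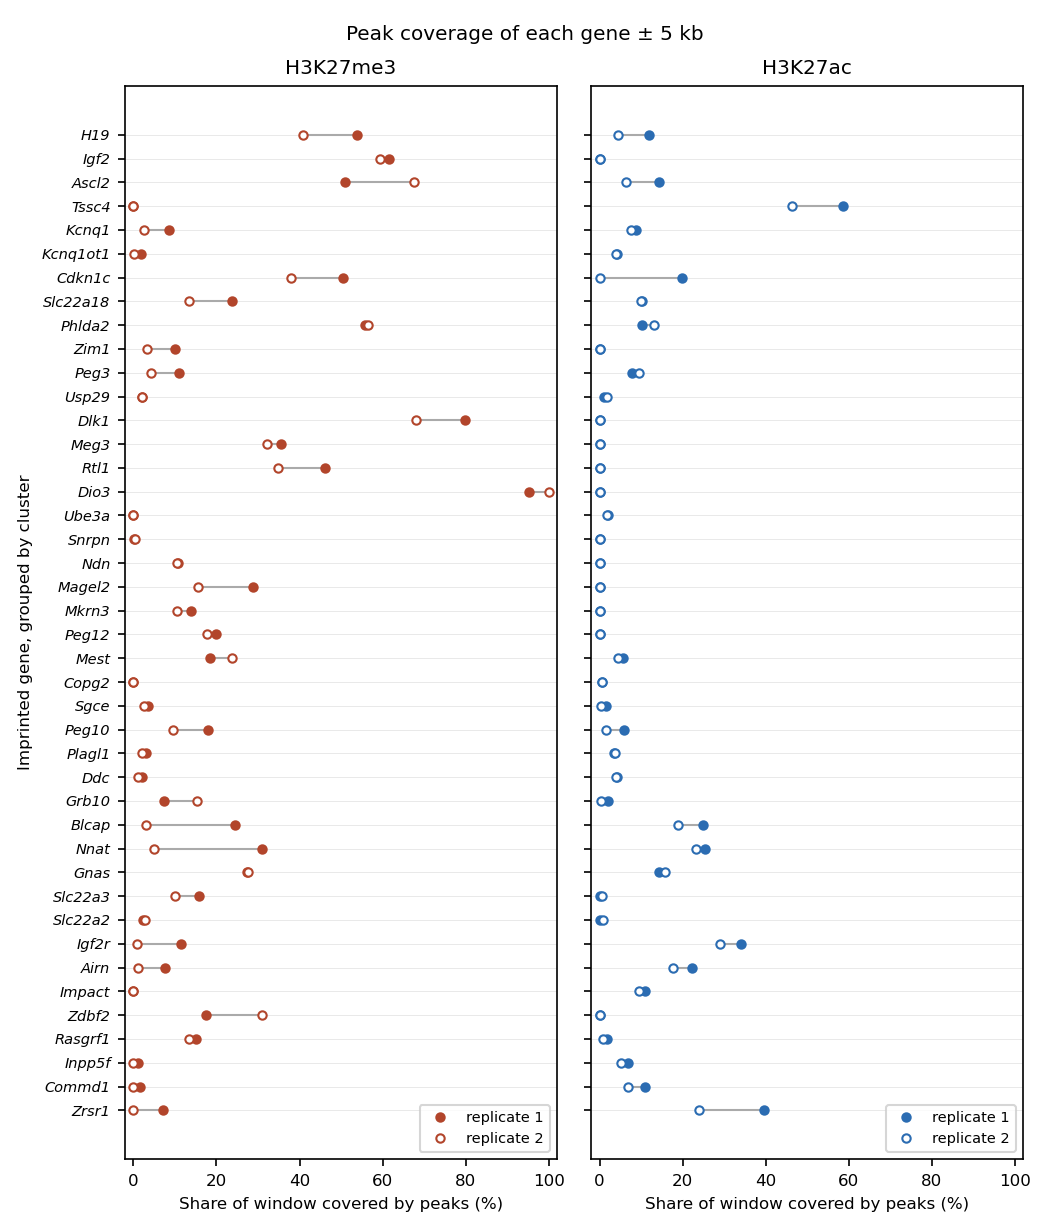
Share of each window covered by peaks (percent, horizontal axis) for the 42 imprinted genes (rows, grouped by cluster), with filled points for replicate 1 and open points for replicate 2. H3K27me3 covers 95.2% and 100% of the Dio3 window and 0.232% and 0.396% of the Snrpn window, and H3K27ac covers the most at Tssc4, 58.6% and 46.5%.

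The Igf2-H19 pair on chromosome 7 (Igf2 at chr7:142650768-142666816) was also mainly under H3K27me3. Igf2, the paternally expressed fetal growth factor, had H3K27me3 over all 4 of its annotated starts, with folds of 8.84 and 6.09 over the 3 inner starts and 8.24 and 4.82 over the outermost, covering 61.4% and 59.5% of its window. It had no H3K27ac peak in either library. H19, the maternal noncoding RNA, had H3K27me3 over 53.9% and 40.8% of its window, at 4.36 and 3.87. Its H3K27ac (3.84 and 3.40) lay 3486 bp or more beyond the gene and not at the start. Of the 72.6 kb between the genes, 24.4% and 24.1% was covered by H3K27me3, and the only H3K27ac was 1 peak of 2.94 in replicate 1.

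Zdbf2, a zinc finger gene on chromosome 1 that is expressed from the paternal copy, had the highest H3K27me3 fold of the 42 genes. The folds of 16.7 and 9.80 belonged to peaks of 1.13 and 1.30 kb over the inner start at 63273269, where the 300 bases hold 38 CpG dinucleotides. Among protein-coding genes with windows over 100 kb these values stood at percentiles of 99.98 and 99.69. Another high peak lay before this start in both libraries, at 24483 bp with a fold of 10.2 in replicate 1 and at 24518 bp with 9.19 in replicate 2, and the outer start at 63200358 had neither mark. No H3K27ac peak was found in its window. Rasgrf1, a paternally expressed activator of Ras on chromosome 9, had H3K27me3 of 8.02 and 5.93 in peaks of 9.53 and 9.37 kb over its start, and H3K27ac of 3.79 and 2.91 at 84755 and 84784 bp inside the gene.

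Gnas on chromosome 2 encodes the stimulatory G protein subunit, from several starts with different imprints. The outermost start (174284320) had H3K27me3 of 6.73 and 4.50 and no H3K27ac. At the inner starts from 174327749 to 174330006 there was H3K27ac of 14.0 and 9.57 in peaks of 4.58 and 4.66 kb, and H3K27me3 of 4.53 in replicate 1 only. The highest H3K27me3 peaks of the gene, 8.60 and 4.85, lay between them, and there a stretch of 322 bp was covered in all 4 libraries. Nnat and Blcap on chromosome 2 also divided the marks between starts. Nnat, a paternally expressed neuronal membrane protein gene inside an intron of Blcap, had H3K27me3 of 4.66 and 3.87 over its start and no H3K27ac within 1 kb of it. Blcap had H3K27ac of 12.6 and 10.9 over its start and H3K27me3 there in replicate 1 only (2.85). The highest H3K27ac folds in the Nnat window were those of the Blcap start, and the H3K27me3 peak at Nnat was the only H3K27me3 peak of replicate 2 in the Blcap window.

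A group of 7 genes carried H3K27ac alone, namely Tssc4, Ube3a, Copg2, Impact, Inpp5f, Commd1 and Zrsr1, and each had it within 1 kb of a start. Among protein-coding genes 70.0% carried H3K27ac and 35.7% carried both marks, the difference being the share with H3K27ac alone. Impact, a regulator of translation, had H3K27ac of 8.71 and 5.72 near a gene end and up to 12.8 and 9.31 inside the gene, with no H3K27me3 peak. Inpp5f, a phosphoinositide phosphatase gene, had H3K27ac of 12.4 and 7.03 at its start and an H3K27me3 peak of 3.36 in replicate 1 only. Commd1, a gene of copper handling, had H3K27ac of 10.3 and 9.02 at its outer start. Zrsr1, a retrotransposed splicing factor gene in an intron of Commd1, had 7.05 and 5.80 at its start, where replicate 1 alone also had H3K27me3 (3.90). The H3K27me3 state of Inpp5f, Commd1 and Zrsr1 therefore differed between the replicates.

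H3K27me3 without H3K27ac was found at 15 genes, namely Igf2, Cdkn1c, Zim1, Dlk1, Meg3, Rtl1, Dio3, Snrpn, Ndn, Magel2, Mkrn3, Peg12, Slc22a3, Slc22a2 and Zdbf2. Among protein-coding genes 46.2% carried H3K27me3 and 35.7% carried both marks, the difference being the share with H3K27me3 alone. For 14 of the 15 imprinted genes the mark lay within 1 kb of a start, Snrpn being the exception. In 4 of them, Cdkn1c, Snrpn, Slc22a3 and Slc22a2, a single library had an H3K27ac peak. The expressed parental copy, taken from general knowledge, was compared with the marks as a description. Of the 18 maternally expressed genes 14 carried H3K27me3 and 13 carried H3K27ac, and of the 24 paternally expressed genes 21 and 14. The protein-coding shares were 46.2% for H3K27me3 and 70.0% for H3K27ac. Each gene was counted under a single copy, although Gnas has starts with different imprints. The expressed copy was not measured in these cells. H3K27me3 alone was on 5 maternally and 10 paternally expressed genes, and 8 of those 10 lie in the Dlk1-Dio3 and Snrpn-Ube3a clusters.

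A second list of imprinted genes outside the 42 held 41 genes that could be matched of 42 listed. Of these 30 carried H3K27me3, against 46.2% of protein-coding genes, 28 carried H3K27ac, against 70.0%, and 19 carried both, against 35.7%. Zim3 and Dcn carried neither, each having a peak in a single library. Some of them, such as Nespas, Cd81 and Rian, overlap the windows of the 42. The highest mean H3K27me3 folds were at Klf14 (17.4 and 7.89), Kcnk9 (11.3 and 6.20), Sfmbt2 (9.20 and 6.96) and Calcr (8.48 and 5.82), none of which had an H3K27ac peak. The highest H3K27ac folds were at Nap1l4 (17.0 and 13), Gab1 (12.5 and 10.3), Jade1 (13.1 and 7.88) and H13 (9.87 and 8.67). Sfmbt2, Slc38a4, Gab1, Jade1 and Smoc1 are imprinted in the early mouse embryo through H3K27me3 in place of DNA methylation. In these adult cells 4 of the 5 carried H3K27me3 and 4 carried H3K27ac. The H3K27me3 peaks at Jade1 shared no base between the libraries. Sfmbt2 had H3K27me3 alone, while Gab1 had H3K27ac in both libraries and H3K27me3 in replicate 1 only (3.25).

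Of 15 genes for regulators of imprinting, 14 carried H3K27ac and 8 carried H3K27me3, against the same 70.0% and 46.2%. The highest H3K27ac folds were at Arid4b (21.6 and 15.0), Smchd1 (22.8 and 13.7), Ctcf (15.9 and 14.4) and Zfp445 (15.8 and 11.0). H3K27me3 was on Dnmt1, Dnmt3a, Dnmt3l, Uhrf1, Zfp57, Trim28, Ctcf and Dppa3, with the highest folds at Zfp57 (5.74 and 5.72). In Dnmt1, Dnmt3a, Uhrf1, Trim28 and Ctcf no base of the window had H3K27me3 in both libraries. Dnmt3l, a cofactor of DNA methylation in germ cells, was the gene without H3K27ac in both libraries, having 3.89 in replicate 1 only.

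The 4 libraries held between 64279 and 95749 peaks over 86.1 to 111 Mb. The H3K27me3 replicates shared 50.1% and 55.9% of their covered bases and the H3K27ac replicates 59.0% and 76.2%, so a call in a single library was common. All 8 markers of globose basal cells carried H3K27ac and 6 of them also carried H3K27me3, against 70.0% and 46.2% of protein-coding genes. H3K27ac was also on 4 of 5 markers of horizontal basal cells, on 4 of 4 of sustentacular cells, of mature olfactory neurons and of fibroblasts and endothelium, and on 3 of 4 leukocyte markers. Of 4 mast cell markers only Hdc carried it, and Cpa3, Fcer1a and Mcpt4 had no H3K27ac peak in either library. With so common a mark these counts do not single out the labelled cell type. The part of other cell types in the marks at imprinted genes was not tested.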

How the data were processed

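H3K27me3 and H3K27ac ChIP-seq peaks of globose basal cells were analysed in 4 libraries, grouped by their titles. The submitters' processing notes name fastp, Bowtie, Picard, MACS2 and the build GRCm38 (mm10). Tool versions are not given in the sources used here. In every library the authors called broad peaks separately, and they deposited for each peak a fold enrichment (a linear ratio over background), a −log10 p and a −log10 q, and a score derived from the −log10 q. The lowest −log10 q in the deposited lists was between 1.00 and 1.01. The lists hold no read totals, so depth is unknown, no counting interval is given, and the absence of a peak holds only at this threshold. Mappability was not analysed.

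Peaks were intersected (minimum 1 bp) with RefSeq genes of GRCm38.p6 and with the starts in its promoter table, which has 17497 of the 21883 protein-coding genes. H19, Kcnq1, Cdkn1c, Rtl1, Sgce, Peg10 and Impact are not in that table, and either gene end stood for their start. The same was done for the protein-coding genes that are not in it. Python 3.11.15 with pandas 2.3.3, numpy 2.4.6 and matplotlib 3.10.9 was used, and the overlap functions were tested on simulated data. All 42 members are named. Of the second imprinted list the 4 genes per mark with the highest mean fold and those with neither mark are named, and of the regulators the 4 with the highest H3K27ac and all with H3K27me3. The members and lists were chosen with earlier results of these data known. No test was run, since there is no group to compare and the members share peaks. Alternatives were other windows, peak thresholds, overlap rules and single replicates.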

Additional observations from a re-analysis of the deposited data

How the results depend on the processing

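Of the alternative counts, 69 stayed within 1.5 times the reported count and 9 did not, all of them at stricter peak thresholds. At a −log10 q cutoff of 2, both marks were on 9 members in place of 20 and neither on 6, and H3K27me3 was at the start of 19 members in place of 29. Mest, Ndn, Peg10, Sgce, Slc22a2 and Zim1 were the 6 with neither. At a cutoff of 5, H3K27me3 was on 4 members (Igf2, Ascl2, Zdbf2 and Rasgrf1), in all 4 at the start. Both marks were then on 0, against 1.54% of protein-coding genes, and neither was on 20, against 43.2%. These 2 counts lay on the other side of the background than the main counts. Of the second list 5 genes carried H3K27me3, against 5.75% of protein-coding genes, and 14 carried H3K27ac. Of the members, 6 lost H3K27ac at a cutoff of 2 and 9 lost it at a cutoff of 5. No protein-coding share is given here for these H3K27ac counts. Fewer peaks enter at these thresholds, and the −log10 q grows with a depth that is unknown. From the peaks of a single replicate, H3K27me3 was on 35 to 38 members, H3K27ac on 28 to 30, both on 23 to 24 and neither on 0 to 0. H3K27me3 was at the start of 30 to 35 and H3K27ac of 24 to 25, and in the second list the counts were 31 to 36 and 30 to 30. No protein-coding share is given beside these counts, and a mark called from a single library is easier to meet for any gene. With the gene body alone, H19, Nnat, Peg10 and Usp29 lost H3K27ac. No paired analysis was possible because no result comes from a test and H3K27me3 replicate 1 shares its input with H3K27ac replicate 2, so equal numbers do not pair the libraries.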
